A study of Esox lucius with 13 samples.

Results

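The cytosolic ribosomal proteins examined here are the gene annotations of the northern pike that begin with 40S or 60S ribosomal protein, acidic proteins included. The rule found 8 of them among the first 1999 gene models of the MAKER2 set and 0 among the first 1999 rows of the Trinity reference. For 5 of the 8 models, S14 and S27 of the small subunit and L3, L22 and L39 of the large subunit, a single one of the 38696 deposited transcripts carried equal, nearly equal or proportional fragment numbers in all 13 libraries. The stalk proteins P0 and P1 and the large-subunit protein L32 had no such transcript and are given at the end, on the scale of the gene models. The RefSeq gene table of assembly fEsoLuc1.pri lists 76 protein-coding pike genes with a ribosomal protein symbol of the rps or rpl kind, so that the 8 are a small part of the family.

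A single juvenile male of wild type gave 13 libraries, 1 for each of head kidney, kidney, spleen, stomach, gut, liver, heart, muscle, gill, nose, eye, brain and testis. The fish had been frozen whole before dissection, and the methods name the gut piece as hind gut. The library labelled stomach is headed pyloric caecum in the table of gene models. The paper's methods list stomach, and it reports high chymosin, gastricsin and pepsin there. Without replicates no tissue could be tested against another, and the values hold for these libraries of 1 fish. Levels are the deposited FPKM, which scales fragments by transcript length and by the total of the library. The 4 other scales named below replace that total by the sum over length-corrected values (TPM), by totals adjusted with the trimmed mean of M values (TMM factors), by the median of ratios (size factors), or by totals without the 100 most abundant transcripts. The ranges given in brackets after levels and shares are 95% Poisson limits from the fragment number, and those after ratios of 2 values are exact 95% limits of the ratio. Both cover counting error only, and 2 values with overlapping ranges may still differ by more than that error.

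Cytosolic ribosomes join a small 40S and a large 60S subunit, each a scaffold of ribosomal RNA covered by proteins that are present, with few exceptions, once per particle. Their mRNAs are among the most abundant of most cells and are controlled together, at transcription and, through a pyrimidine tract at their 5′ end, at translation. In mammals L3, L22 and L39 have paralogues of their own, of which those of L3 and L39 are known mainly from striated muscle and from testis. The pike table lists rpl22 together with rpl22l1, and rps27.1 and rps27.2 together with rps27l. It was not searched for paralogues of L3 and L39. Close copies may share fragments, and the sources used here do not say how a fragment with several matches was counted.

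Between 17240414 fragments (brain) and 22300517 (liver) were counted per library. The transcripts paired with markers of liver, testis and kidney were highest in those tissues. Hemopexin, a plasma protein, was highest in liver at 5920 FPKM. Cyclin-B2 and securin, proteins of cell division, had 1651 and 933 FPKM in testis, and 78.5 and 72.0 in kidney. Renin was highest in kidney at 23.7 FPKM, but had 13.1 in gut. Trypsin-1, of exocrine pancreas, had 1154 FPKM in spleen, 831 in liver and 229 in head kidney. Stomach had 32.7 FPKM and eye and gill 0, and the other tissues had at most 26.1. It was the only 1 of 4 pancreatic annotations that could be paired, and its part in the results was not tested. The lists for blood, eye, stomach, heart and surface epithelium had 0 paired transcripts, so that blood content could not be compared between libraries.

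The summed share of the 5 transcripts was largest in stomach and head kidney and smallest in brain and testis. S14 and L3 held most of these fragments, 512658 and 589284 over all libraries, against at most 78540 for each of the others. Together the 5 transcripts made up 0.880% of the fragments in stomach (95% interval 0.876 to 0.884) and 0.829% in head kidney (0.825 to 0.833). Gill followed with 0.713%, nose with 0.657%, gut with 0.565% and spleen with 0.538%. Eye and kidney, with 0.520% (0.517 to 0.523) and 0.518% (0.515 to 0.521), had overlapping intervals. Liver had 0.434%, muscle 0.355% and heart 0.327%. Testis and brain came last, with 0.217% (0.215 to 0.219) and 0.167% (0.165 to 0.169). In whole tissues, a smaller share of cells rich in ribosomal mRNA and less of this mRNA per cell cannot be told apart.

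The protein S14 of the small subunit lies close to the site where mRNA is read, and the loss of 1 copy of its gene is known from human anaemia with a deletion on the long arm of a chromosome. Its transcript, of 621 bases, was the most abundant of the 5 in all tissues but testis and ranked between 7th and 27th among all transcripts of a library. It had 5436 FPKM in head kidney, 5082 in stomach, 4844 in gill, 4491 in nose, 3736 in eye, 3672 in gut and 3517 in spleen. Values were 2995 FPKM in kidney, 2772 in muscle, 2704 in liver, 2027 in heart, 1031 in brain and 999 in testis. Brain and testis stood apart from the remaining tissues, and their own intervals overlapped, at 1012 to 1050 FPKM in brain and 981 to 1017 in testis. Eye and gut also overlapped. The highest value was 5.44 times the lowest (5.34 to 5.55).

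S27, a small zinc-binding protein of the same subunit, had a transcript of 564 bases with an order of tissues close to that of S14. It had 1129 FPKM in head kidney, 1054 in stomach, 711 in gill, 658 in gut, 617 in nose, 604 in spleen and 569 in eye. It had 530 FPKM in muscle, 512 in kidney, 369 in liver, 309 in heart, 160 in brain and 92.5 in testis. It was lower in testis than in brain, with intervals of 86.9 to 98.4 FPKM and 152 to 168 that, unlike those of S14, did not overlap. Head kidney exceeded testis 12.2 times (11.4 to 13.03).

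L3, which reaches towards the centre where the ribosome joins amino acids, had the most even levels of the 5 with FPKM. Its transcript of 1257 bases had 3386 FPKM in stomach, 2856 in head kidney, 2530 in gill, 2205 in nose, 2071 in kidney, 1989 in spleen and 1968 in gut. It had 1847 FPKM in eye, 1632 in liver, 1294 in heart, 1117 in testis, 893 in muscle and 682 in brain. Muscle was next to lowest for L3, whereas it was in 8th or 9th place for S14, S27 and L22 and in 6th for L39. In testis L3 was the 18th most abundant transcript, whereas S27 was the 868th and L22 the 2685th. Its highest value was 4.97 times its lowest (4.88 to 5.06), the smallest range of the 5 with FPKM. The ratio of these tissues, stomach over brain, was 2.84 with TPM and 18.8 with TMM factors. They need not be the highest and lowest on another scale, so that the place of L3 as the most even holds for FPKM only.

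L22, an RNA-binding protein of the outer face of the large subunit, whose loss in mice impairs T cell development, was the least abundant and, with FPKM, had the widest range. Its transcript, of 530 bases, had 414 FPKM in head kidney, 386 in stomach, 299 in gut, 294 in nose, 232 in kidney, 225 in spleen and 212 in gill. Liver and muscle had 159 FPKM each, heart 139 and brain 77.3. The lowest values were 34.3 FPKM in testis (30.8 to 38.1) and 24.2 in eye (21.3 to 27.3), from 258 fragments. Eye was thus the lowest tissue for L22, although it was 5th for S14, 7th for S27, 8th for L3 and 10th for L39. Head kidney exceeded eye 17.1 times (15.1 to 19.5), and between 11.7 and 16.5 times on 4 other scales. The interval with FPKM overlapped that of the next widest range, of L39, at 15.2 times (14.04 to 16.4).

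L39, one of the smallest ribosomal proteins, lines the tunnel through which the new chain leaves. Its transcript of 489 bases had 1198 FPKM in stomach, 1030 in nose, 961 in head kidney, 886 in gill, 742 in gut, 657 in muscle and 643 in liver. It had 621 FPKM in kidney, 491 in spleen, 454 in eye, 271 in heart, 146 in testis and 78.9 in brain. Muscle and liver overlapped in their intervals, as did liver and kidney. Stomach exceeded brain 15.2 times (14.04 to 16.4), and between 8.68 and 57.4 times on 4 other scales, so that the size of this ratio depends on the scale. Over the 5 transcripts, between 1 and 4 of the 12 pairs of neighbours in the order of tissues overlapped, so that most steps in each order were larger than counting error.

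**Figure D1:**
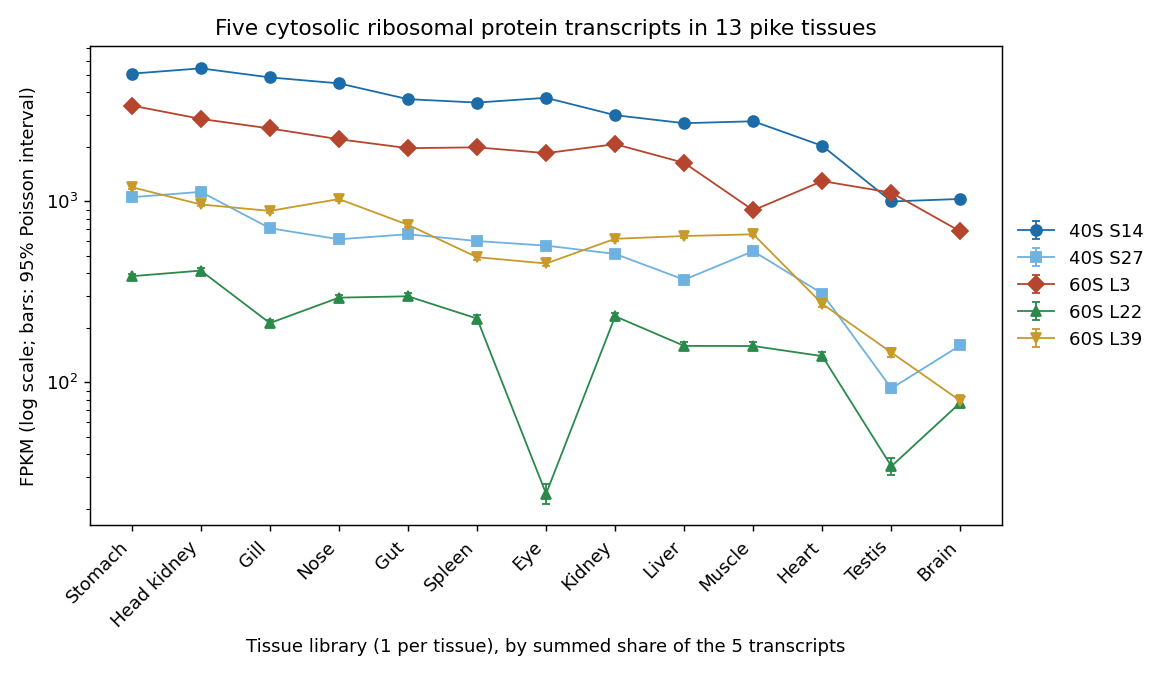
FPKM on a log axis of the 5 paired ribosomal protein transcripts in the 13 tissue libraries, ordered by their summed share of fragments, with 95% Poisson intervals as bars; lines only join the points of 1 transcript. S14 lies at the top except in testis, where L3 reaches 1117 FPKM against 999 for S14, and L22 drops to 24.2 FPKM in eye.

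Each tissue was next set against the median of the other 12. In brain all 5 transcripts were at least 2-fold lower, a step that 15.4% of the 15182 transcripts with at least 1000 fragments also took in that direction. S14 had 1031 FPKM in brain against a median of 3594, a ratio of 0.287, and L39 had 78.9 against 650.4, a ratio of 0.121. The ratios of S27, L3 and L22 in brain were 0.273, 0.344 and 0.353. The median ratio of all 15182 transcripts in brain was 1.34 with FPKM, and between 0.736 and 1.54 on the 5 scales.

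In testis 4 of the 5 were at least 2-fold lower, beside 30.3% of all transcripts. L22 had 34.3 FPKM in testis against a median of 219, a ratio of 0.157. S27 had 92.5 against 586, a ratio of 0.158, L39 a ratio of 0.224 and S14 a ratio of 0.278. L3 was the exception, with 1117 FPKM in testis against 1979, a ratio of 0.564. The median ratio of all transcripts in testis was 1.30 with FPKM, and between 0.791 and 1.38 on the 5 scales.

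No transcript of the 5 was at least 2-fold higher in more than 2 tissues. L22 had 414 FPKM in head kidney against 186, a ratio of 2.23, and S27 had 1129 against 549.8, a ratio of 2.05, whereas 26.5% of all transcripts were as much higher there. Neither was past 2-fold with TMM factors, size factors or totals without the 100 most abundant transcripts. In head kidney the other 3 ratios were 1.67 for S14, 1.52 for L39 and 1.497 for L3. In stomach L22 had 386 FPKM against 186, a ratio of 2.08, the only 1 of 5 past 2-fold, beside 8.09% of all transcripts. The other 4 ratios in stomach were 1.56 for S14, 1.77 for L3, 1.89 for L39 and 1.92 for S27. In the 9 tissues left, L22 in eye was at a ratio of 0.111, beside 20.6% of all transcripts at least 2-fold lower, L39 in heart at 0.417, beside 23.2%, and L3 in muscle at 0.451, beside 69.4%.

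**Figure D2:**
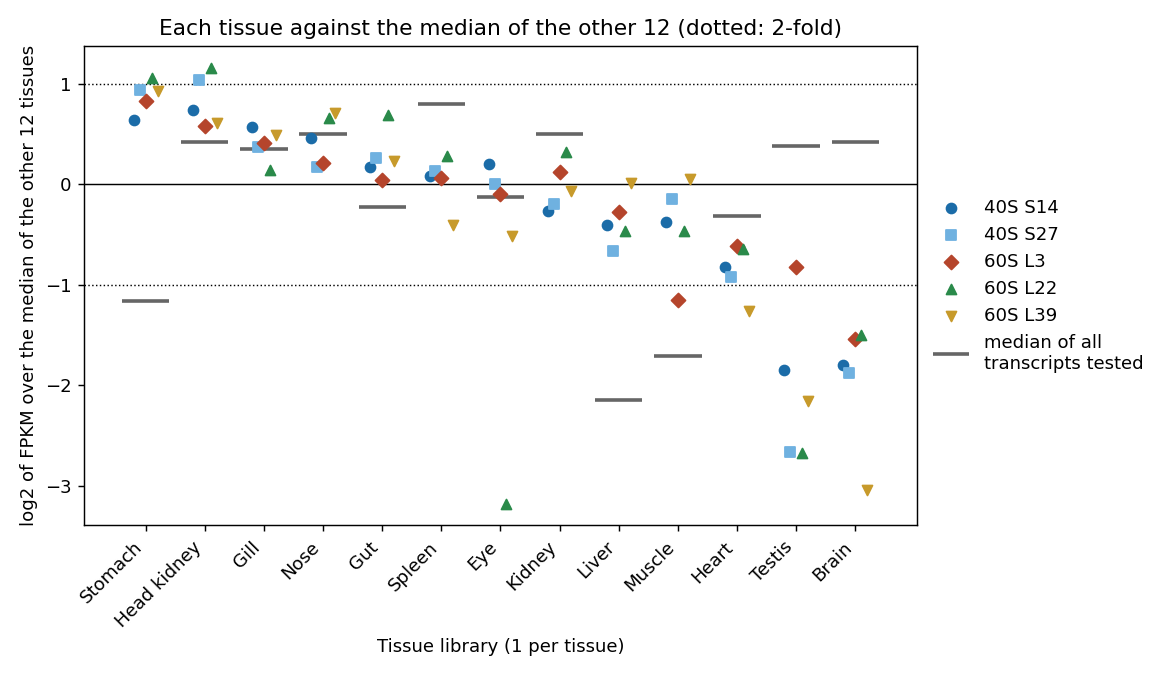
log2 of the FPKM in each tissue over the median of the other 12, for the 5 transcripts (points) and as the median of 15182 transcripts (grey lines), with dotted lines at 2-fold. All 5 points lie below the grey line in testis, brain, heart, kidney and spleen. They lie above it in head kidney and gut, and in stomach, liver and muscle, where the median ratios of all transcripts were 0.446, 0.225 and 0.305.

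The comparison between tissues depends on what the fragments are divided by, because a few transcripts fill much of some libraries. The 100 most abundant transcripts took 74.7% of the fragments in stomach, 74.3% in liver and 71.6% in muscle, but 32.4% in brain and 15.0% in testis. The direction in brain, testis and heart was the same on every scale tried. In heart the median of the 5 lay between 0.564 and 0.645, and no ratio exceeded 0.844. There 1 of 5 was at least 2-fold lower on each scale, beside 18.2% to 23.2% of all transcripts. On 5 scales (FPKM, TPM, TMM factors, size factors by the median of ratios, and totals without the 100 most abundant transcripts) all 5 transcripts were at least 2-fold lower in brain, beside 12.5% to 33.5% of all transcripts, and 4 or 5 of them in testis, beside 29.4% to 39.6%. L22 was at least 2-fold lower in eye on all 5, beside 17.4% to 21.9% of all transcripts. In liver, muscle, nose, spleen, kidney and eye the median of the 5 lay below 1 on some scales and above 1 on others. With FPKM the median ratio of the 5 was 0.752 in liver and 0.771 in muscle, and with TMM factors it was 3.37 in liver and 2.65 in muscle. In nose it was 1.38 with FPKM and 0.802 with TMM factors, in spleen 1.05 and 0.608, in kidney 0.955 and 0.674 and in eye 0.934 and 1.07. Kidney lay above 1 only with TPM, at 1.04. L3 in muscle, at 0.451 with FPKM, was at 1.47 with TMM factors. In stomach the median of the 5 was between 1.31 and 4.46 on the 5 scales, and in head kidney it was between 1.19 and 1.67. In gill this median was between 1.07 and 1.35, and in gut between 1.17 and 1.49. The lowest single ratios on any scale were 0.839 in gill and 0.9995 in gut. In stomach 0 of 5 were past 2-fold with TPM, beside 5.09% of all transcripts, and 5 of 5 with TMM factors, beside 21.3%.

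**Figure D3:**
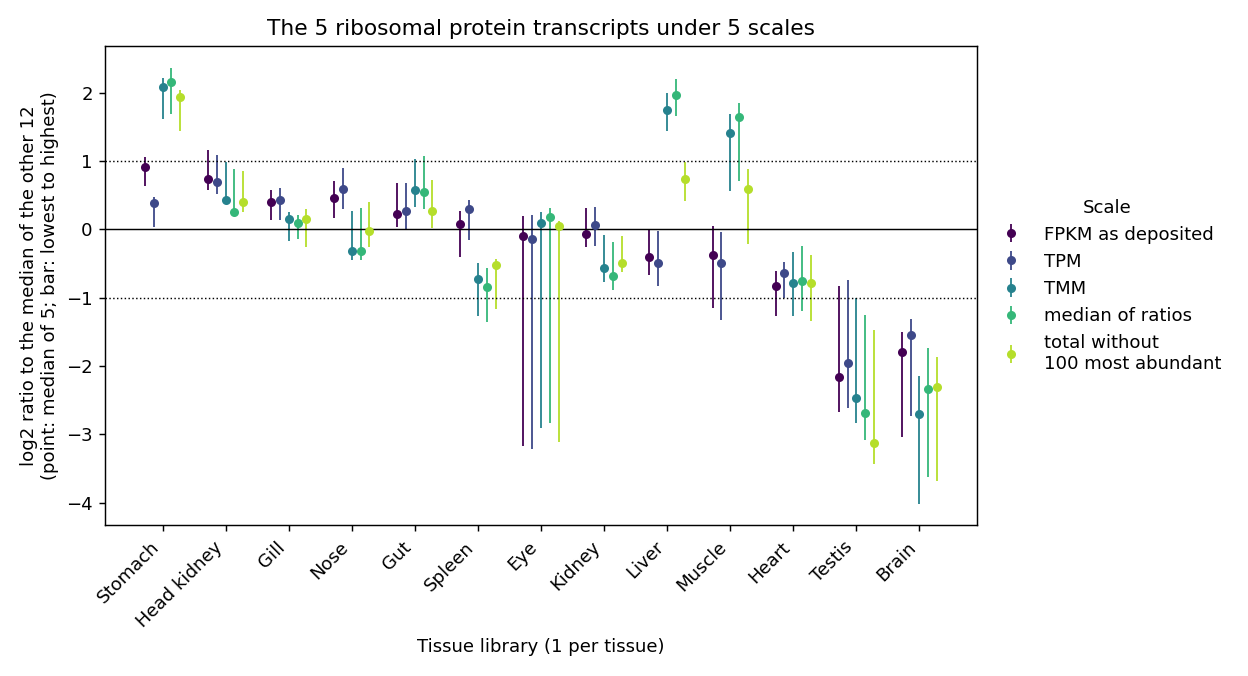
log2 ratio of each tissue to the median of the other 12 on 5 scales, as the median of the 5 transcripts (points) and their lowest to highest value (bars), with dotted lines at 2-fold. Brain, testis and heart are below 0 on each scale, whereas the points of liver and muscle lie below 0 with FPKM and TPM and above 0 on the other 3 scales.

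Ratios between members of 1 library do not depend on the total. They were taken per base of transcript and relative to S14, with exact 95% intervals of the ratio. L22 had 0.647% of the level of S14 in eye (0.571 to 0.732), against 3.44% to 8.14% in the other 12 tissues, whose median was 6.71%. Eye was the only tissue in which L22 lay under 1% of S14. The second lowest was testis, with 3.44% (3.08 to 3.82), and gill followed with 4.38%. In the remaining 10 tissues L22 stood between 5.72% and 8.14%.

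L3 had 112% of the level of S14 in testis (109 to 114), against 32.2% to 69.2% in the other 12 tissues, and testis was the only tissue in which L3 exceeded S14. In muscle it had 32.2% (31.6 to 32.8), the lowest of the 13, the next being nose with 49.1%. The testis ratio was 2.03 times the median of the other 12, and the muscle ratio 0.551 times.

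L39 had 7.65% of the level of S14 in brain (7.06 to 8.27), against 12.1% to 23.8% in the other 12 tissues. Liver, muscle and stomach had 23.8%, 23.7% and 23.6%, with overlapping intervals. S27 was more even. It had 9.26% of S14 in testis (8.68 to 9.88), against 13.6% to 20.8% in the other 12 tissues, with head kidney and stomach highest at 20.8% and 20.7%.

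**Figure D4:**
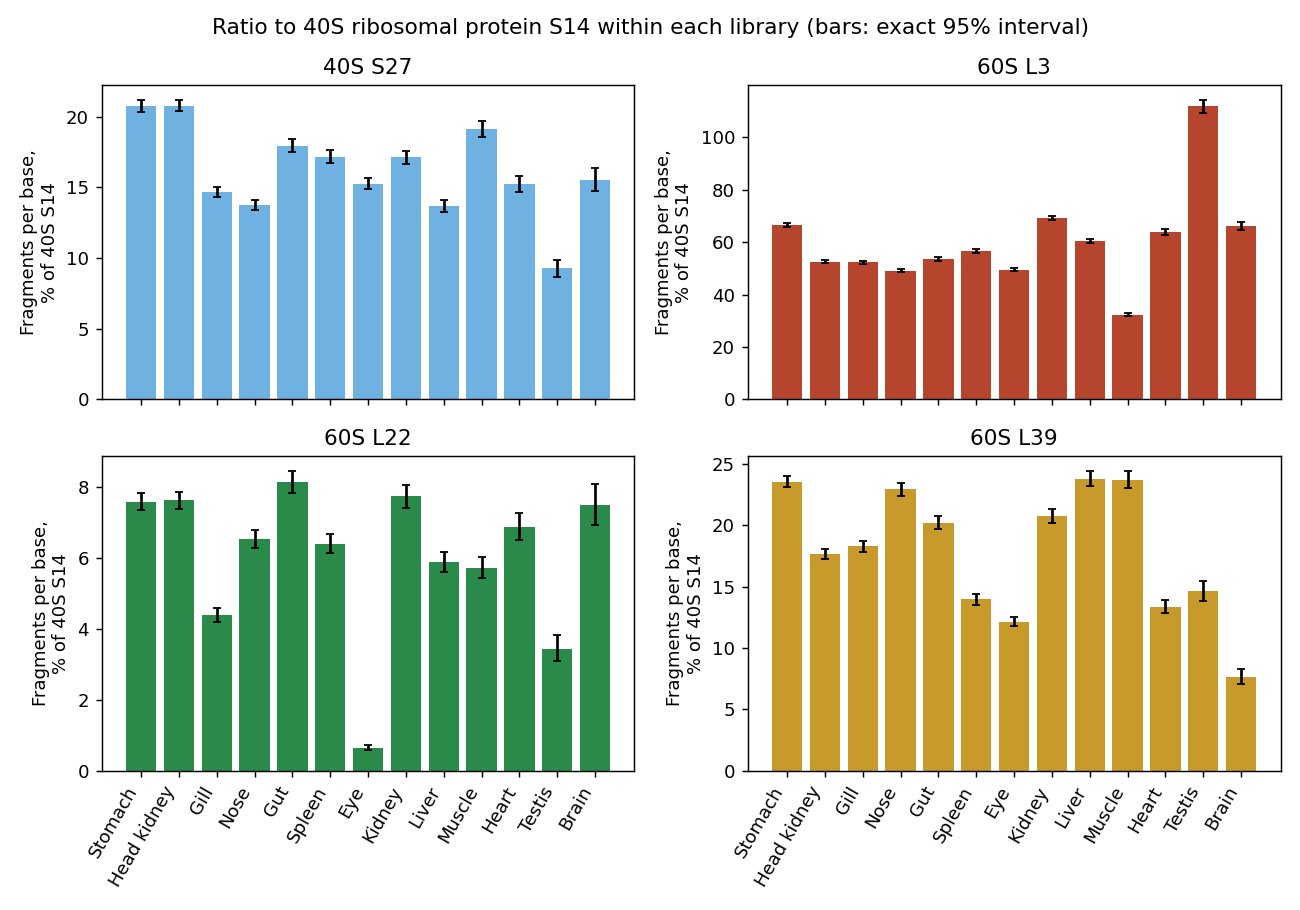
Fragments per base of S27, L3, L22 and L39 as a percent of S14 in the same library, with exact 95% intervals; each panel has its own axis from 0. The lowest bars are L22 in eye (0.647%), L39 in brain (7.65%), S27 in testis (9.26%) and L3 in muscle (32.2%), and L3 in testis reaches 112%.

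Over the 13 tissues the log2 FPKM of S14 and S27 had a Pearson r of 0.97 and a Spearman rho of 0.97, the highest of the 10 pairs. L3 and L22 had the lowest r, 0.57, with a rho of 0.80, and without eye it was 0.78. For S14 and L22 the r was 0.64, and 0.94 without eye. Without brain and testis the r of the 10 pairs lay between 0.36 and 0.93, with a median of 0.69 in place of 0.80. These values are descriptions, since the points share their libraries and totals.

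Among all transcripts with at least 1000 fragments, 40 others had an r of at least 0.9 with the mean log2 FPKM of the 5. Of the members, which are part of that mean, L3 and L22 had an r of 0.86 and 0.82 with it, below 0.9. S14, S27 and L39 had 0.96, 0.95 and 0.95. The 40 others were 0.264% of the 15177 searched, and 0 of them had a name at hand. Their median length was 898 bases, against 2777 for all 15182, and the median of their highest values was 1805 FPKM, against 27.3. Among the 240 named transcripts outside the members the most alike was Matrix metalloproteinase-19, a protease of the extracellular matrix, with an r of 0.82. It had 32.01 FPKM in head kidney and 0.236 in brain. Leukocyte elastase inhibitor had an r of 0.76, Angiopoietin-related protein 1 of 0.75, Transforming growth factor-beta-induced protein ig-h3 of 0.74 and Cornifelin of 0.73, and all 4 were lowest in testis.

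Few other parts of the translation machinery could be paired. Of 11 annotated translation factors and partners 2 were, of 4 nucleolar or ribosome assembly proteins 1 was, and of 4 mitochondrial ribosomal proteins 0 were. The U3 small nucleolar RNA-associated protein 11, which serves in the nucleolus to process the RNA of the small subunit, had 177 FPKM in testis, 30.3 in kidney, 24.5 in head kidney and 21.3 in spleen. It was 17.3 times its median of the other 12 in testis, where the 5 ribosomal proteins were at 0.157 to 0.564 times. Of all 15182 transcripts, 40.4% were at least 2-fold higher in testis. In brain this protein had 8.66 FPKM, a ratio of 0.609. Eukaryotic translation initiation factor 4E-binding protein 2, an inhibitor of cap-dependent initiation, had 10.3 FPKM in testis, its lowest value, and 48.1 in brain, with ratios of 0.271 and 1.37. The delta subunit of the translocon-associated protein, which sits beside the channel for secreted chains, had 148 FPKM in testis and 43.0 in brain, with ratios of 1.19 and 0.317, and was highest in liver at 240 FPKM.

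The models of P0, P1 and L32 had no paired transcript, and their FPKM was set by totals over the gene models, so that it is not on the scale of the levels above. P0 carries the stalk to which elongation factors bind. Its model had 5492 FPKM in eye, 5128 in gill, 4745 in liver, 4463 in nose, 4239 in kidney, 4168 in muscle and 4035 in stomach. It had 3670 FPKM in gut, 3652 in head kidney, 2572 in heart, 2503 in spleen, 1235 in testis and 1220 in brain. Brain and testis were again lowest, with overlapping intervals of 1196 to 1244 and 1217 to 1254 FPKM, but head kidney was in 9th place and eye first.

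P1, which binds to P0 in the stalk, had 3689 FPKM in stomach, 3134 in gut, 2787 in nose, 2616 in gill, 2511 in spleen, 2378 in head kidney and 2367 in eye. It had 2137 FPKM in kidney, 2033 in muscle, 1812 in heart, 1362 in brain, 1148 in liver and 417 in testis. Testis was at 0.176 times the median of the other 12 for P1 and at 0.301 times for P0, brain at 0.574 and 0.297 times. The model of L32, a core protein of the large subunit, was short at 252 bases and held 3156 fragments in all, against 179738 for P1. It had 141 FPKM in stomach, 139 in kidney and 135 in gut, with overlapping intervals. The lowest values were 24.8 in brain (18.1 to 33.0), 23.7 in muscle (18.9 to 29.3) and 16.1 in eye (11.8 to 21.5). They came from 46, 83 and 46 fragments, and their intervals overlapped as well. In testis it had 83.4 FPKM, 1.09 times the median of the other 12, unlike the other 7 members.

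**Figure D5:**
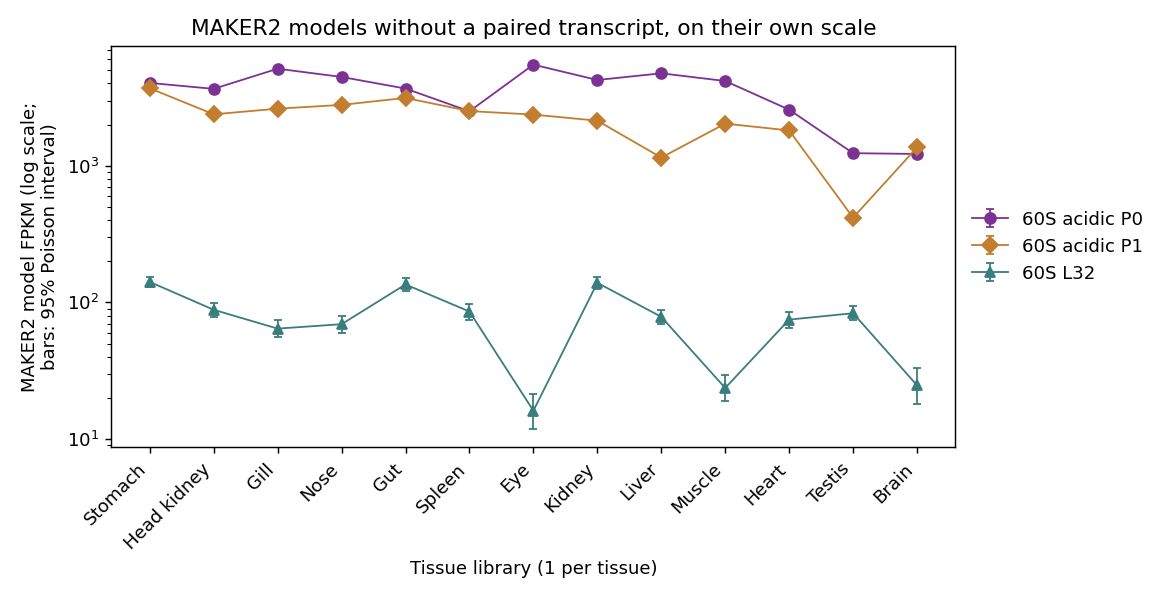
FPKM of the MAKER2 models of P0, P1 and L32 on a log axis in the 13 libraries, on the scale of the gene models, with 95% Poisson intervals; lines only join the points of 1 model. P0 is lowest in brain and testis, and P1 drops to 417 FPKM in testis. L32 is lowest in eye at 16.1 FPKM, with an interval that overlaps those of brain and muscle.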

How the data were processed

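RNA was sequenced from 13 tissues of 1 fish, with 1 library each. The authors cleaned the read pairs with Trimmomatic, assembled them with Trinity, kept 1 representative of transcripts at least 98% similar, mapped each library back and deposited, for 38696 transcripts, raw fragment counts and FPKM. The mapper and the counter are not named in the sources used here. Names came from the first 1999 rows of the supplementary expression tables. The columns held 0 further per-sample values.

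A gene model was paired with the only transcript with equal fragments in 13 libraries (L22), or within 1 fragment or 0.1% and 20% in length (S14, S27, L39), or with ratios within 10% of their median in libraries with at least 100 fragments (L3). The last step needed at least 6 such libraries, a limit added after seeing the data. P0, P1 and L32 have gene-model fragments and FPKM, used on their own scale and in no count. Transcript lengths were calculated from fragments, FPKM and totals. Members and lists were chosen with earlier results of these data known. All paired members are named, as are paired genes of the other lists and the 5 named transcripts most alike in log2 FPKM. Zero counts were set to a floor of 3 fragments over all transcripts. The pairing and the fold calculation were tested on simulated data. Alternatives were TPM, edgeR TMM factors, size factors as in DESeq2, totals without the 100 most abundant transcripts, the mean in place of the median, log2(FPKM + 1), a fold of 1.5, other tissue sets, equal fragments only and no filter. Genome coordinates and sequences were not used here. Scripts ran under R 4.3.3 with edgeR 4.0.16 and Python 3.11.15 with scipy 1.17.1, pandas 2.3.3, numpy 2.4.6 and matplotlib 3.10.9.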

Additional observations from a re-analysis of the deposited data

How the results depend on the processing

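The counts in brain and testis kept within 1.5 times of their values of 5 and 4 of 5 under each alternative except equal fragments, which leaves L22 alone, 1 of 1 in both. In stomach the count of 1 was 0 with TPM and 5 with TMM factors, size factors, totals without the 100 most abundant transcripts and a fold of 1.5. It was 3 with the mean and 2 without head kidney and kidney. Of all transcripts, 8.09% were at least 2-fold higher in stomach with FPKM, 5.09% with TPM and 21.3% with TMM factors. The share was 23.0% with size factors and 21.1% without the 100 most abundant transcripts. In head kidney equal fragments, which leave L22 alone, gave 1 of 1. Among all 5 the count of 2 there was 1 with TPM and without kidney, and 4 with a fold of 1.5. Of all transcripts, 15.3% to 26.5% were at least 2-fold higher in head kidney on the 5 scales. For the fold of 1.5, the mean and other tissue sets no such share is given. The count was 0 with TMM factors, size factors and totals without the 100 most abundant. It was also 0 with liver, muscle and stomach out of the other tissues, a setting chosen after seeing the data. The scale also moves the median of all transcripts: its log2 ratio was -2.15 in liver and 0.42 in brain with FPKM, and -0.15 in liver and -0.44 in brain with TMM factors. Without the filter on low values, 24.6% of 38393 transcripts were at least 2-fold lower in testis and 13.1% in brain. The 5 pairs of highest and lowest tissue were picked by FPKM and held fixed, and none of their ratios reversed on another scale. Stomach over brain ranged between 8.68 and 57.4 for L39 and between 2.84 and 18.8 for L3. The highest tissue itself changed with the scale. With TMM factors the 5 transcripts were at 3.06 to 4.68 in stomach and at 1.29 to 1.99 in head kidney. With TPM they were at 1.02 to 1.39 in stomach and at 1.44 to 2.13 in head kidney. No value could be had for mitochondrial ribosomal proteins in testis, since none was paired. No paired analysis was possible because each tissue has 1 library of the same fish. At 258 fragments for L22 in eye, the fewest of the 5 paired transcripts, depth did not limit these 5. The L32 model had 46 fragments in brain and in eye, so that its counting error was wide there. Without replicates the variation between fish, extractions and libraries is unknown.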
